A study of Arabidopsis with 24 samples.

Results

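The JASMONATE ZIM-DOMAIN (JAZ) genes encode repressors of jasmonate signaling. The genes described here are JAZ1 (AT1G19180), JAZ2 (AT1G74950), JAZ3 (AT3G17860), JAZ5 (AT1G17380), JAZ6 (AT1G72450), JAZ7 (AT2G34600), JAZ8 (AT1G30135), JAZ9 (AT1G70700), JAZ10 (AT5G13220) and JAZ12 (AT5G20900), which were chosen by locus code. All 10 were found among the 32833 genes of the deposited expression values. Transcript levels were measured in whole Arabidopsis seedlings that had grown for 6 days in white light (WL). They then received 6 h of shade with a red to far-red ratio of 0.3 (low R:FR) or stayed in WL. There were 4 genotypes, all in the Col-0 background, which gave 8 groups of 3 libraries. The dvl1-1D line is an activation-tagged line in which a T-DNA insertion in the promoter of RTFL18, a small non-secreted peptide gene, leads to overexpression. The bsk36 line combines T-DNA mutations of BSK3 and BSK6, which encode brassinosteroid signaling kinases, and pif47 carries mutations in PIF4 and PIF7, which encode transcription factors of the shade response. The unaltered line was Col-0. A mutant line is 1 genotype, so an effect of the line and an effect of its named gene cannot be told apart.

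In the absence of hormone, JAZ proteins bind transcription factors such as MYC2 and recruit the corepressor TOPLESS (TPL), directly or through the adaptor NINJA. Jasmonoyl-isoleucine, made by the enzyme JAR1, brings JAZ proteins to the F-box receptor COI1, and they are then degraded by the proteasome. MYC factors released in this way also activate many JAZ genes, so JAZ transcripts are commonly used as a readout of the pathway. Shade is known to dampen jasmonate defense in Arabidopsis, and the sulfotransferase ST2A, which removes a jasmonate precursor from the active pool, is a known shade-induced gene.

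Levels are given as FPKM, fragments scaled to transcript length and to the mapped total of the library. Summed over all genes they were between 758368 and 801109 per library. The steps between the lowest values of rarely detected genes gave relative depths of 0.815 to 1.26 of the median library. Pearson correlations across genes between replicates of a group were between 0.957 and 0.970, and no library stood apart. The genotype labels held in the libraries. RTFL18 was at 909 ± 105 and 554 ± 55.2 FPKM in dvl1-1D in low R:FR and WL, against 12.3 ± 1.02 and 0.387 ± 0.356 FPKM in Col-0 (SD, n = 3 each). BSK3 did not exceed 0.03 FPKM and BSK6 0.75 FPKM in any bsk36 library, against at least 22.3 and 9.49 FPKM in Col-0. PIF7 was at 0.893 ± 0.280 and 0.880 ± 0.416 FPKM in pif47, against 12.1 ± 1.36 and 11.5 ± 1.82 FPKM in Col-0. PIF4 in pif47 was lower than in Col-0 and still measurable, at 7.88 ± 0.194 FPKM in low R:FR, against 24.1 ± 2.20 FPKM in Col-0. The labels call the libraries of a group replicates and do not say whether they came from separate cultures, so p-values measure only the spread between these libraries.

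The JAZ transcripts spanned a wide range of levels per unit length. JAZ12, whose protein is stabilised by the ubiquitin ligase KEG, was the most abundant, with a mean of 48.5 FPKM over the 24 libraries and a range of 42.32 to 56.57 FPKM. JAZ9, whose protein also binds the DELLA growth repressor RGA, followed at 30.3 FPKM. Both were separated from their neighbours in every library. JAZ2, which acts in guard cells, averaged 17.8 FPKM and JAZ6 15.5 FPKM, and their ranges overlapped, with JAZ2 above JAZ6 in 19 of 24 libraries. JAZ1, among the first JAZ repressors identified, averaged 10.6 FPKM and JAZ3, the gene of the dominant jasmonate-insensitive allele jai3-1, 8.71 FPKM. The ranges of JAZ1 and JAZ3 also overlapped, with JAZ1 higher in 21 libraries. JAZ10, whose splice variants include forms resistant to degradation, averaged 2.03 FPKM. JAZ5, JAZ7 and JAZ8 were near the limit of detection, with means of 0.474, 0.217 and 0.0638 FPKM. JAZ7 was listed at 0 in 5 libraries and JAZ8, whose protein lacks the canonical degron, in 14. Within groups the median coefficient of variation was 4.87% for JAZ12 and 5.77% for JAZ9, against 13.4% for JAZ1 and 13.2% for JAZ10.

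**Figure D1:**
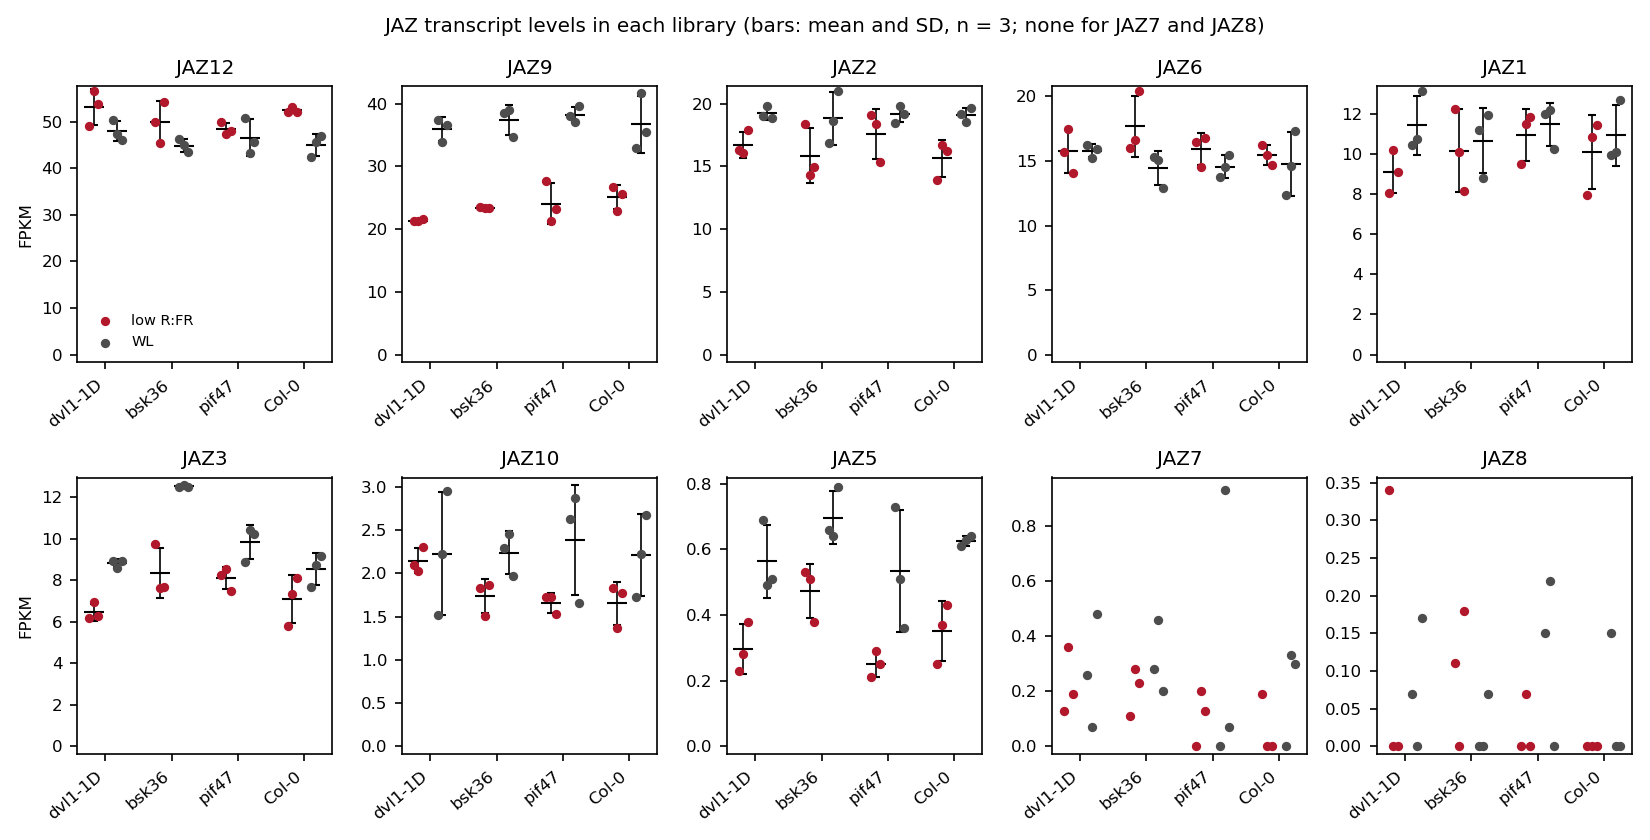
FPKM of each of the 10 JAZ genes in every library, in low R:FR (red) and WL (grey) for dvl1-1D, bsk36, pif47 and Col-0. Points are libraries and black bars are the mean and SD of 3, left out for JAZ7 and JAZ8, which were listed at 0 in 5 and 14 libraries. The 12 low R:FR libraries lie between 21.23 and 27.7 FPKM for JAZ9, below the lowest WL library at 32.99 FPKM.

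The first question was how 6 h of low R:FR changed these transcripts. JAZ9 fell in every genotype. In dvl1-1D it was at 21.3, 21.23 and 21.56 FPKM in low R:FR, against 37.46, 33.9 and 36.54 FPKM in WL. In bsk36 JAZ9 was at 23.48, 23.38 and 23.37 FPKM in low R:FR, against 38.47, 39.0 and 34.62 FPKM in WL. The 3 low R:FR libraries of each of these lines were nearly equal. In pif47 JAZ9 was at 27.7, 21.31 and 23.23 FPKM in low R:FR, against 38.08, 37.13 and 39.58 FPKM in WL. In Col-0 JAZ9 was at 26.74, 22.96 and 25.54 FPKM in low R:FR, against 32.99, 41.76 and 35.44 FPKM in WL. Every low R:FR library was below every WL library, which held for 2.70% of the 20682 tested genes. On the log2(FPKM + 0.1) scale, the log2 fold changes of JAZ9 were -0.75 in dvl1-1D, -0.67 in bsk36, -0.67 in pif47 and -0.54 in Col-0, with a standard error of 0.0869 each. The limma adjusted p was 2.95e-06 in dvl1-1D, 1.19e-05 in bsk36, 1.65e-05 in pif47 and 5.76e-05 in Col-0. Averaged over the 4 genotypes, the change was -0.66 (standard error 0.0435, limma adjusted p = 1.25e-10), and 2.05% of tested genes had a more negative value. In bulk seedlings, fewer cells of a type and less RNA per cell cannot be told apart.

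JAZ3 was lower in low R:FR in each genotype, and the change passed the test in dvl1-1D and bsk36. In dvl1-1D it was at 6.17, 6.93 and 6.25 FPKM in low R:FR, against 8.9, 8.6 and 8.94 FPKM in WL (log2 fold change -0.45, standard error 0.110, limma adjusted p = 0.00665). In bsk36 it was at 9.72, 7.63 and 7.65 FPKM in low R:FR, against 12.49, 12.6 and 12.48 FPKM in WL (log2 fold change -0.59, limma adjusted p = 0.000638). Neither pair of groups overlapped, which within a genotype held for 36.5% of all tested genes in dvl1-1D, 32.0% in bsk36, 36.6% in pif47 and 43.0% in Col-0, in either direction. In pif47 JAZ3 was at 8.25, 8.53 and 7.49 FPKM in low R:FR, against 8.87, 10.41 and 10.21 FPKM in WL, which did not overlap and did not pass (limma adjusted p = 0.0892). In Col-0 it was at 5.81, 7.31 and 8.12 FPKM in low R:FR, against 7.68, 8.74 and 9.16 FPKM in WL, with overlap (limma adjusted p = 0.0576). Both of these came under the threshold when libraries were scaled to a common median ratio, with adjusted p = 0.033 in pif47 and 0.0095 in Col-0. The mean change over the genotypes was -0.40 (standard error 0.0552, limma adjusted p = 5.19e-06).

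JAZ2 fell less. In Col-0 it was at 13.95, 16.74 and 16.22 FPKM in low R:FR, against 19.14, 18.57 and 19.66 FPKM in WL, and the groups did not overlap (log2 fold change -0.29, limma adjusted p = 0.0238). This call rested on single libraries. Without Col-0 low R:FR replicate 1 the change was -0.21 and the adjusted p 0.123, and without Col-0 WL replicate 1 or 3 the adjusted p was 0.0589 or 0.0671. In pif47 the change was -0.13, in bsk36 -0.25 and in dvl1-1D -0.20, none of which passed, and the mean over genotypes was -0.22 (limma adjusted p = 0.00099).

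JAZ12 was the only tested member called higher, in Col-0 and for the mean over genotypes. In Col-0 it was at 52.0, 53.21 and 52.13 FPKM in low R:FR, against 42.32, 45.61 and 46.94 FPKM in WL (log2 fold change 0.22, limma adjusted p = 0.01465). Without Col-0 WL replicate 1 the change was 0.18 and the adjusted p 0.0814, and with libraries scaled to a common median ratio the adjusted p was 0.06. In pif47 the change was 0.06, in bsk36 0.15 and in dvl1-1D 0.14, none of which passed, and the mean over the genotypes was 0.14 (limma adjusted p = 0.00162). JAZ12 overlaps the protein-coding gene AT5G20910 in the RefSeq TAIR10.1 annotation. That gene was at 5.74 to 10.27 FPKM, and whether counting used strand is not given in the sources used here.

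JAZ10, a sensitive early jasmonate-induced gene, was at 1.37 to 2.31 FPKM in the 12 low R:FR libraries, with a median of 1.80, against 1.52 to 2.95 FPKM in the 12 WL libraries, with a median of 2.26. No single genotype passed, and the mean over the genotypes was -0.30 (standard error 0.109, limma adjusted p = 0.0282). That call was lost on leaving out any 1 of 6 libraries, namely Col-0 WL replicate 3, Col-0 low R:FR replicate 2, dvl1-1D WL replicate 3, pif47 WL replicate 1 or 2 and bsk36 low R:FR replicate 2, with adjusted p up to 0.0585. In bsk36 the JAZ10 groups did not overlap. JAZ1 was at 7.97 to 12.24 FPKM in low R:FR, against 8.82 to 13.12 FPKM in WL, and passed in no comparison, although its groups did not overlap in dvl1-1D (log2 fold change -0.32, limma adjusted p = 0.186). Its mean change over genotypes was -0.15, with a 95% interval from -0.32 to 0.02. JAZ6 was at 14.08 to 20.4 FPKM in low R:FR, against 12.33 to 17.31 FPKM in WL, with a mean change of 0.12 and a 95% interval from 0.00454 to 0.24 (limma adjusted p = 0.0805). In bsk36 JAZ6 was at 16.03, 16.62 and 20.4 FPKM in low R:FR, against 15.32, 15.09 and 12.93 FPKM in WL. These groups did not overlap, and the log2 fold change of 0.29 was the highest of the tested members within a genotype but did not pass (limma adjusted p = 0.0872).

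**Figure D2:**
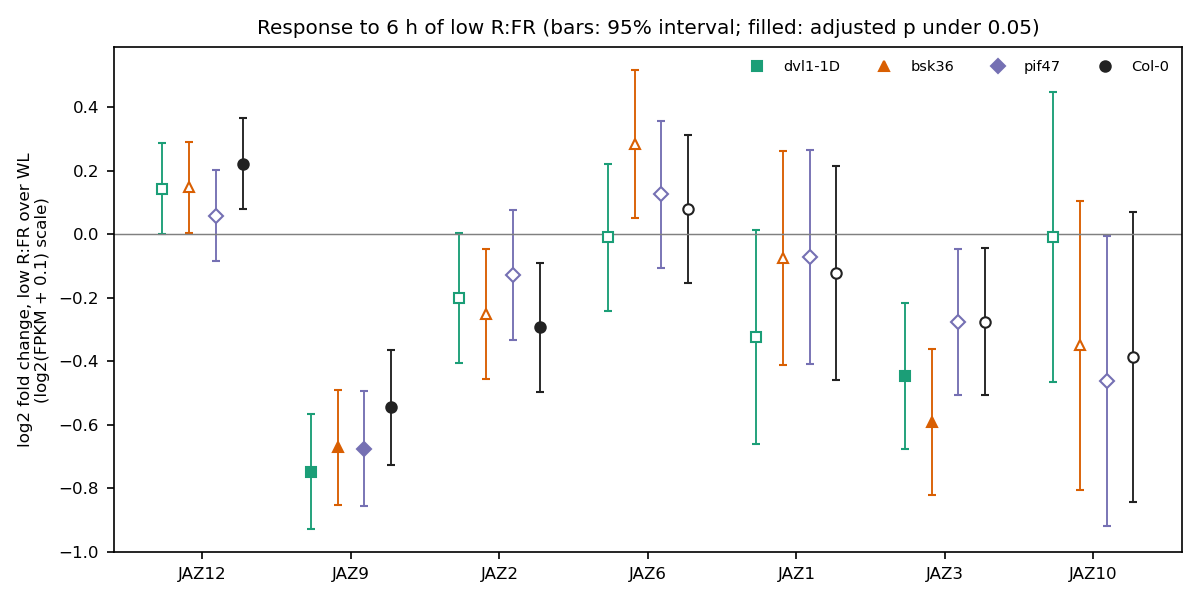
Log2 fold change of the 7 tested JAZ genes, low R:FR over WL, on the log2(FPKM + 0.1) scale, in dvl1-1D, bsk36, pif47 and Col-0. Symbols are limma estimates, bars the 95% interval, and filled symbols passed an adjusted p of 0.05. The 4 estimates for JAZ9 lie between -0.75 and -0.54, and the intervals of the 4 genotypes overlap for each gene.

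JAZ5, JAZ7 and JAZ8 had mean levels under the minimum of 0.5 FPKM and were not in the main test. JAZ5 nevertheless had the lower values in low R:FR in every genotype. It was at 0.23, 0.28 and 0.38 FPKM in dvl1-1D in low R:FR, against 0.69, 0.49 and 0.51 FPKM in WL. In bsk36 it was at 0.53, 0.51 and 0.38 FPKM in low R:FR, against 0.66, 0.64 and 0.79 FPKM in WL. Both lines had every low R:FR library below every WL library. In pif47 JAZ5 was at 0.21, 0.29 and 0.25 FPKM in low R:FR, against 0.73, 0.51 and 0.36 FPKM in WL. In Col-0 it was at 0.25, 0.37 and 0.43 FPKM in low R:FR, against 0.61, 0.63 and 0.64 FPKM in WL. Neither of these pairs overlapped either. Within a genotype, groups were apart for 32.0% (bsk36) to 43.0% (Col-0) of the genes in the main test, in either direction, and JAZ5 is not among those genes. Over all genotypes its ranges overlapped, at 0.21 to 0.53 FPKM in low R:FR, against 0.36 to 0.79 FPKM in WL. Of the 12 low R:FR libraries, 6 were below every WL library. With no filter, over 26686 genes, its change was -0.75 in dvl1-1D (limma adjusted p = 0.0334), -0.48 in bsk36 (0.206), -0.82 in pif47 (0.0204) and -0.71 in Col-0 (0.0246). The mean over genotypes was -0.69 (standard error 0.114, limma adjusted p = 6.79e-05). Leaving out 1 library took the call of a single genotype away in several cases, which are given with the alternatives. The mean was called in all 28 alternatives, which were chosen after seeing the data. JAZ7 reached at most 0.36 FPKM in low R:FR and 0.93 FPKM in WL, and JAZ8 at most 0.34 FPKM in low R:FR and 0.22 FPKM in WL. For JAZ7 and JAZ8 no difference was detectable at this depth.

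These counts are read against the share of all genes called. In dvl1-1D, 2 of 7 tested members were lower and 0 higher, against 8.35% and 10.7% of all tested genes. In bsk36, 2 were lower and 0 higher, against 9.24% and 8.09%. In pif47, 1 was lower and 0 higher, against 10.1% and 8.25%. In Col-0, 2 were lower and 1 higher, against 15.7% and 21.0%. For the mean over genotypes, 4 were lower and 1 higher, against 21.3% and 27.1%. With no filter, the shares of genes lower were 6.18% in dvl1-1D, 6.76% in bsk36, 7.42% in pif47, 11.8% in Col-0 and 16.5% for the mean. All changes of the 7 members within a genotype lay between -0.75 and 0.29, short of the log2 fold change of 1 that the study used as a threshold. Their median change in dvl1-1D was -0.20, against 0.03 for all tested genes. In bsk36 the medians were -0.25 for members and -0.01 for all genes, in pif47 -0.13 and 0.03, and in Col-0 -0.27 and 0.06.

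Summed over the 10 genes, the JAZ transcripts were at 119 to 133 FPKM in the low R:FR libraries, with a median of 127, against 127 to 145 FPKM in the WL libraries, with a median of 143. The make-up of this pool also moved. JAZ12 made up 40.1 ± 2.05% of it in low R:FR, against 32.6 ± 1.42% in WL (SD, n = 12 libraries each), and every low R:FR library was above every WL library. The JAZ12 level itself overlapped over all genotypes, at 45.3 to 56.57 FPKM in low R:FR, against 42.32 to 50.84 FPKM in WL. Its share depends on the sum as well as on its own level. JAZ9 made up 18.5 ± 1.56% in low R:FR, against 26.2 ± 1.42% in WL, and these libraries did not overlap either. These shares were not tested, since they follow from the member levels already given.

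**Figure D3:**
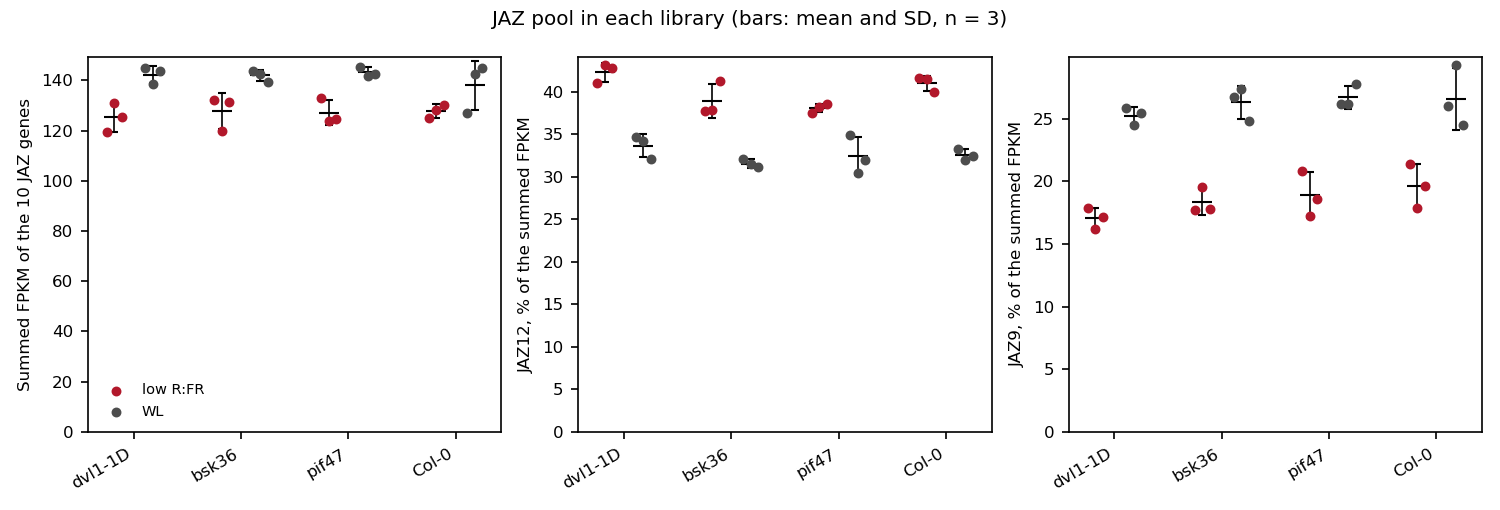
Summed FPKM of the 10 JAZ genes (left) and the percentage of that sum given by JAZ12 (middle) and JAZ9 (right) in every library, in low R:FR (red) and WL (grey). Points are libraries and bars are the mean and SD of 3. JAZ12 gave 37.6% to 43.2% of the sum in low R:FR, against 30.5% to 35.0% in WL, and JAZ9 gave 16.2% to 21.4%, against 24.5% to 29.3%.

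The second question was whether the mutants altered JAZ transcripts. JAZ3 rose in bsk36 in WL, with 12.49, 12.6 and 12.48 FPKM in bsk36, against 7.68, 8.74 and 9.16 FPKM in Col-0. The groups did not overlap, as for 35.4% of all tested genes, and the log2 fold change was 0.55 (standard error 0.110, limma adjusted p = 0.00237). It was the only one of the 7 tested members called in that comparison, in which 18.6% of all genes were called and 13.7% were higher. Of all calls in this comparison 73.6% were higher, a share that became 45.2% when libraries were scaled to a common median ratio. JAZ3 stayed called under that scaling and in each of its 13 alternatives, with adjusted p up to 0.0332. In low R:FR, JAZ3 was at 9.72, 7.63 and 7.65 FPKM in bsk36, against 5.81, 7.31 and 8.12 FPKM in Col-0, which did not pass (log2 fold change 0.24, limma adjusted p = 0.317).

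No other member was called between a mutant and Col-0. These comparisons share the Col-0 libraries. In WL 0 of 7 were called for dvl1-1D, against 4.63% of all genes, and 0 for pif47, against 3.65%. In low R:FR 0 of 7 were called for dvl1-1D, against 9.40% of all genes, 0 for bsk36, against 1.44%, and 0 for pif47, against 13.5%. At an unadjusted limma p under 0.05, 1 member each was past the threshold in dvl1-1D and bsk36 in low R:FR, and 0 in the other 3 comparisons. Of all 20682 tested genes, 5098 were past it in dvl1-1D and 3118 in bsk36 in low R:FR. For the other 3 comparisons these were 4162 in dvl1-1D in WL, 3993 in pif47 in WL and 5550 in pif47 in low R:FR. The member past it in dvl1-1D in low R:FR was JAZ9, at 21.3, 21.23 and 21.56 FPKM in dvl1-1D, against 26.74, 22.96 and 25.54 FPKM in Col-0. These groups did not overlap (log2 fold change -0.23, limma adjusted p = 0.106). In the same comparison JAZ10 was at 2.1, 2.03 and 2.31 FPKM in dvl1-1D, against 1.83, 1.37 and 1.77 FPKM in Col-0. JAZ12 in low R:FR was at 49.92, 47.27 and 48.08 FPKM in pif47, against 52.0, 53.21 and 52.13 FPKM in Col-0. Neither of these pairs overlapped, and neither passed the test (limma adjusted p = 0.324 for JAZ10 and 0.299 for JAZ12). In low R:FR, groups did not overlap for 27.3% of all tested genes between dvl1-1D and Col-0 and for 29.0% between pif47 and Col-0, in either direction. The same held for 2 and 1 of the 7 tested members.

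The interaction between genotype and light was called for 0 of 7 members in each mutant, against 2.44% of all genes in the pif47 interaction, 3.03% in that of bsk36 and 2.34% in that of dvl1-1D. No member had an unadjusted limma p under 0.05, against 3092 of the 20682 tested genes in the pif47 interaction, 4011 in that of bsk36 and 3815 in that of dvl1-1D. For JAZ9 the response to low R:FR differed from that in Col-0 by -0.20 in dvl1-1D, with a 95% interval from -0.46 to 0.05. In bsk36 it differed by -0.13 (interval -0.38 to 0.13), and in pif47 by -0.13 (interval -0.39 to 0.13). For JAZ3 in bsk36 the difference was -0.32 (interval -0.64 to 0.00881, limma adjusted p = 0.272). The light responses of the mutants and Col-0 were therefore not shown to differ for any member, and the intervals do not show that they were alike.

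Among the genes around the JAZ proteins, MYC2 and JAM2 were called in every genotype, and COI1, MYC3, MYC4 and NINJA in none. COI1, the receptor, had a mean change over genotypes of 0.03. MYC3, MYC4 and NINJA, which encode the direct partners of JAZ proteins, had -0.02, 0.03 and -0.02. MYC2, the master activator that JAZ proteins repress, rose in all 4 genotypes, to 9.62 ± 1.35 FPKM in Col-0 in low R:FR, against 6.91 ± 0.494 FPKM in WL (SD, n = 3 each), and its mean change was 0.44 (limma adjusted p = 9.15e-06). JAM2, a bHLH repressor that competes with MYC2, also rose in all 4, with a mean change of 0.77 (limma adjusted p = 7.04e-13). For the list of receptor and transcription factor genes, 2 of 10 tested were higher and 0 lower for the mean over genotypes, with a median of 0.04 against 0.03 for all tested genes. Of all tested genes, 27.1% were higher and 21.3% lower in that comparison. By genotype, 2 of the list were higher and 0 lower in dvl1-1D, 2 and 0 in bsk36, 2 and 1 in pif47 and 4 and 0 in Col-0. The shares of all tested genes higher and lower were 10.7% and 8.35% in dvl1-1D and 8.09% and 9.24% in bsk36. They were 8.25% and 10.1% in pif47 and 21.0% and 15.7% in Col-0.

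Of the synthesis genes, 3 of 12 tested were higher and 4 lower for the mean over genotypes, with a median of -0.01, beside the same 27.1% and 21.3% of all genes. The counts by genotype were 1 lower and 2 higher in dvl1-1D, 0 and 2 in bsk36, 6 and 1 in pif47 and 4 and 1 in Col-0. Of all tested genes, 8.35% were lower and 10.7% higher in dvl1-1D, and 9.24% and 8.09% in bsk36. In pif47 these shares were 10.1% and 8.25%, and in Col-0 15.7% and 21.0%. For the mean over genotypes, the lower ones were the lipoxygenase genes LOX2, LOX3 and LOX4 and the allene oxide synthase gene AOS, at -1.02, -0.38, -0.67 and -0.10. LOX2 was at -0.07 in dvl1-1D and -0.57 in bsk36, neither called, and at -1.08 in pif47 and -2.37 in Col-0, both called. AOS was at 0.16 in dvl1-1D and 0.16 in bsk36, neither called, and at -0.29 in pif47 and -0.41 in Col-0, both called. Among those higher for the mean were the peroxisomal oxidase gene ACX1 at 0.26 and JAR1 at 0.11 (limma adjusted p = 0.031). Of the inactivation genes, 3 of 8 tested were higher and 1 lower, with a median of 0.12. Those named by size were ST2A at 3.82, the amidohydrolase gene ILL6 at 0.48, the jasmonate hydroxylase gene CYP94B1 at 0.47 and, lower, the jasmonate oxidase gene JOX3 at -0.43. The mean of ST2A does not stand for every genotype. Its response in pif47 differed from that in Col-0 by -4.69 (limma adjusted p = 3.62e-10). ST2A was at 50.1 ± 1.59 FPKM in dvl1-1D in low R:FR, against 1.84 ± 0.112 FPKM in WL, and at 52.3 ± 6.29 FPKM in bsk36 in low R:FR, against 2.06 ± 0.534 FPKM in WL (SD, n = 3 each). All 4 tested output genes, of 7 listed, were lower for the mean over genotypes, with a median of -0.65. By genotype, 2 were lower in dvl1-1D (median -0.16), 2 in bsk36 (median -0.39), 1 in pif47 (median -0.33) and 4 in Col-0 (median -1.35). The shares of all tested genes lower in each genotype are those given above for the synthesis genes. For the mean they were the vegetative storage protein genes VSP1 and VSP2 at -0.54 and -0.77, JR1 at -0.30 and the ethylene and jasmonate regulator ORA59 at -1.08.

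The other ZIM-domain genes gave no light call. None of the 5 tested of 6 genes (JAZ4, JAZ11, PPD1, PPD2 and TIFY8, with JAZ13 under the filter) passed for the light response in any genotype or for the mean. For the mean, 1 had an unadjusted limma p under 0.05, as did 11161 of all 20682 tested genes. Between genotypes, JAZ4 and PPD2 were higher in pif47 than in Col-0 in low R:FR, by 0.86 and 0.33 (limma adjusted p = 0.0225 and 0.0142). PPD2, a regulator of leaf growth, was also higher in bsk36 in WL, by 0.30 (limma adjusted p = 0.0225), and TIFY8 was lower in dvl1-1D in low R:FR, at -0.34 (limma adjusted p = 0.0172). Of all tested genes, 13.5% were called in pif47 in low R:FR, 18.6% in bsk36 in WL and 9.40% in dvl1-1D in low R:FR. Of the calls in bsk36 in WL, 73.6% were higher, and 45.2% after scaling to a common median ratio. How the calls of JAZ4, PPD2 and TIFY8 depend on the processing was not tested.

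**Figure D4:**
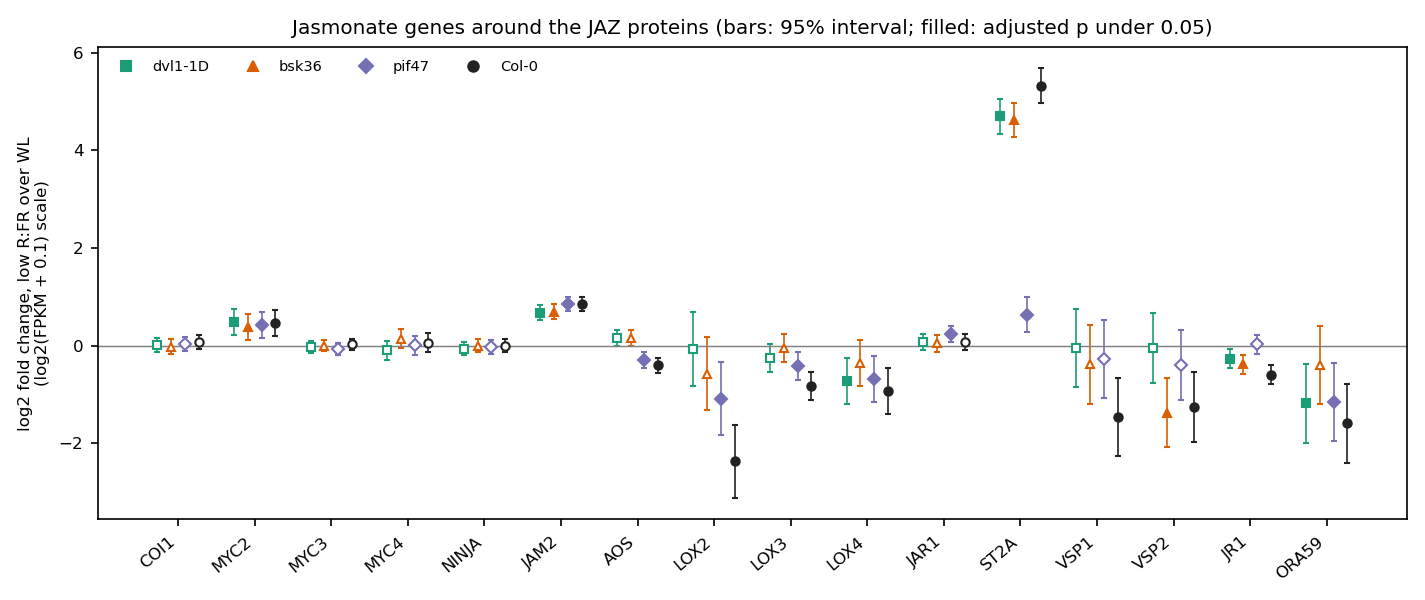
Log2 fold change, low R:FR over WL, on the log2(FPKM + 0.1) scale, of 16 jasmonate genes in dvl1-1D, bsk36, pif47 and Col-0. Symbols are limma estimates, bars the 95% interval, and filled symbols passed an adjusted p of 0.05. MYC2 and JAM2 are filled in all 4 genotypes, COI1, MYC3, MYC4 and NINJA in none, and ST2A is at 0.64 in pif47, against 5.33 in Col-0.

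Marker lists for handling and for tissue were read in the same libraries. The 12 touch and wound response genes, which respond to handling, summed to 114 to 235 FPKM in low R:FR, against 108 to 155 FPKM in WL, and for the mean over genotypes 4 were higher and 1 lower, beside 27.1% and 21.3% of all tested genes. By genotype, these sums were 157 to 179 FPKM in low R:FR, against 140 to 148 FPKM in WL, in dvl1-1D. In bsk36 they were 139 to 179 FPKM in low R:FR, against 111 to 122 FPKM in WL, and in pif47 114 to 133 FPKM in low R:FR, against 108 to 114 FPKM in WL. In Col-0 they were 182 to 235 FPKM in low R:FR, against 124 to 155 FPKM in WL. TCH4, a cell wall enzyme gene that also responds to light and hormones, was the most changed, with a mean of 1.28. Its response differed from that in Col-0 by -1.51 in dvl1-1D and -1.75 in pif47 (limma adjusted p = 0.00267 and 0.000112). The 4 root markers CASP1, COBL9, EXPA7 and PRP3 summed to 56.0 to 116 FPKM in low R:FR, against 47.9 to 73.3 FPKM in WL, with 3 of 4 higher for the mean over genotypes. Their sums in low R:FR against WL were 64.3 ± 4.04 against 64.4 ± 3.59 FPKM in dvl1-1D and 79.0 ± 21.5 against 65.3 ± 9.90 in bsk36. They were 95.8 ± 20.3 against 68.5 ± 2.26 FPKM in pif47 and 78.3 ± 15.5 against 57.1 ± 8.23 in Col-0 (SD, n = 3 each). By genotype, 1 was higher in Col-0, beside 21.0% of all tested genes, and 0 in dvl1-1D, bsk36 and pif47, beside 10.7%, 8.09% and 8.25%. The 3 green tissue markers RBCS1A, LHCB3 and CAB1 summed to 30064 to 37499 FPKM in low R:FR, against 31321 to 37675 FPKM in WL, with 2 higher and 1 lower for the mean over genotypes. The floral markers AP3 and AG together did not exceed 0.29 FPKM in low R:FR or 0.43 FPKM in WL. The part of tissue proportion or handling in the JAZ changes was not tested.

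Among the 7 tested members, deviations from the group means were only weakly related over the 24 libraries, with a median Pearson r of 0.09 over 21 pairs. The highest were JAZ2 with JAZ3 (0.62) and JAZ1 with JAZ3 (0.59), and the lowest JAZ2 with JAZ6 (-0.43). These are descriptions of libraries that share their preparation. For the levels themselves, in place of deviations, the median Pearson r over the 21 pairs was 0.24. The values ran from -0.60 for JAZ9 with JAZ12 to 0.69 for JAZ3 with JAZ9. The mean level of the 7 members is therefore not a pattern that all of them followed. The 8 tested genes most like the mean standardised level of the 7 members had Pearson r of 0.776 to 0.814 over the 24 libraries, in which the light difference is shared. They were AT2G18220 (nucleolar complex protein), AT1G29320 (WD40 repeat protein), AT2G05760 (NAT1), AT1G55690 (SFH13), AT4G38380 (DTX45), AT5G26180 (methyltransferase family), AT3G16430 (JAL31) and AT2G40430. None of them is a ZIM-domain gene or in the jasmonate lists. By gene order in the RefSeq TAIR10.1 annotation, JAZ5 and LOX3 have 2 protein-coding genes between them and JAZ6 and LOX4 have 6.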

How the data were processed

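Poly(A) RNA libraries were made from whole seedlings, with 3 per group in 8 groups. The processing notes of the submitters name fastp, cutadapt, HISAT2, DESeq2 and the TAIR10 genome, and the counting method, annotation and any use of strand are not given in the sources used here. The authors deposited FPKM values, which are normalised for transcript length and library size. Counts were not used here, so depth is known only relative to other libraries. It was estimated from 161 rarely detected genes, with 87.2% of 1410 values within 0.15 of a whole step. The authors' 8 group mean columns were not used.

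A limma model (version 3.58.1 in R 4.3.3) with trend and 8 group means was fitted to log2(FPKM + 0.1) for the 20682 genes with a mean of at least 0.5 FPKM. P-values were Benjamini-Hochberg adjusted over all tested genes, and a call is an adjusted p under 0.05. Fold changes on this scale understate the change of low genes. The fit was tested on simulated data with independent noise and few changed genes. That test checks the code only and does not bear on the calls made here. Comparisons were low R:FR against WL in each genotype and averaged over the 4, each mutant against Col-0 in each light, and the interactions. Alternatives were pseudocounts of 1 and 0.01, no filter, a minimum mean of 1 FPKM, scaling to a common median ratio, fitting only the groups compared, a replicate block and leaving out each library. Those for JAZ5 were chosen after seeing the data.

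All 10 members were described. From each list of related genes, at most 4 are named for the mean light response, those called with the largest change. Besides these, COI1, MYC2, MYC3, MYC4, NINJA, ST2A, JAR1 and AOS are given whether called or not. Calls between a mutant and Col-0 under the same light are named only for the other ZIM-domain genes. Other lists held such calls too. In pif47 against Col-0 in low R:FR, 3 of 4 tested output genes were higher and 0 lower. Of the 12 touch and wound response genes, 3 were lower and 0 higher there, beside 13.5% of all genes called in either direction. The members and lists were chosen with earlier results of these data known. Gene names came from the RefSeq TAIR10.1 table, which matched 32536 of 32833 genes. That table was also used for gene order and overlaps, and no coordinates or sequences are printed.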

Additional observations from a re-analysis of the deposited data

Results flagged for a closer look

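No JAZ gene had an interaction between genotype and light that passed the test. In the related lists, 9 did, and each is given as the difference in log2 response to low R:FR between the mutant and Col-0, with its limma adjusted p. In dvl1-1D these were LOX2 at 2.30 (0.0247), AOS at 0.56 (0.0118) and TCH4 at -1.51 (0.00267). In bsk36 they were TPL at -0.29 (0.0371), LOX3 at 0.77 (0.034) and AOS at 0.56 (0.0092). In pif47 they were ST2A at -4.69 (3.62e-10), JR1 at 0.62 (0.0113) and TCH4 at -1.75 (0.000112). All 9 come from the main fit. The alternatives covered the JAZ genes only, so how these 9 calls depend on the processing was not tested. The TPL value concerns the corepressor that JAZ proteins recruit, which was at 59.3 ± 0.937 FPKM in bsk36 in low R:FR, against 60.1 ± 1.90 FPKM in Col-0, and at 64.2 ± 2.70 FPKM in bsk36 in WL, against 53.3 ± 4.36 FPKM in Col-0 (SD, n = 3 each).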

How the results depend on the processing

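All light calls of JAZ9 and the JAZ3 calls in dvl1-1D, bsk36, the mean over genotypes and bsk36 against Col-0 in WL held under every alternative. The count of members called in pif47 for low R:FR was 1, and became 2 with no filter (JAZ5), with libraries scaled to a common median ratio (JAZ3) and without pif47 WL replicate 3 (JAZ10), so leaving out a library gave 1 to 2. The other counts of members called stayed within 1.5 times. Of the member values, 609 kept their direction and side of the threshold, 25 lost the call, 10 gained it and 11 turned sign, the last only in changes that were not called. On leaving out a library these lay between -0.22 and 0.0371 for JAZ1 in Col-0, -0.22 and 0.0736 for JAZ1 in bsk36, -0.15 and 0.0296 for JAZ1 in pif47, -0.0418 and 0.20 for JAZ6 in Col-0, -0.085 and 0.0684 for JAZ6 in dvl1-1D, and -0.25 and 0.21 for JAZ10 in dvl1-1D. The cause was not tested.

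The call of JAZ2 in Col-0 was also lost when only the groups compared were fitted (limma adjusted p = 0.0546). That of JAZ5 with no filter was lost in 4 of 10 alternatives in Col-0, on leaving out any WL replicate or low R:FR replicate 1. It was lost in 5 of 10 in dvl1-1D, without WL replicate 1 or 3, without low R:FR replicate 1 or 2, and with a pseudocount of 0.01. In pif47 it was lost in 4 of 10, without WL replicate 1 or 2 or low R:FR replicate 1 or 3. The limma adjusted p of JAZ5 reached 0.12 in Col-0, 0.142 in dvl1-1D and 0.131 in pif47. JAZ3 in Col-0 gained the call without WL replicate 1 (0.0372) or low R:FR replicate 3 (0.0149), and JAZ2 in bsk36 without WL replicate 1 (0.0451) or low R:FR replicate 1 (0.0137).

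Replicate numbers did not pair the libraries. The 30 correlations of same-numbered deviations were between -0.143 and 0.0867, and in 0 of 10 comparisons were all 3 over 0.1. With the replicate block, the members called were 2 in dvl1-1D, 2 in bsk36, 1 in pif47, 3 in Col-0 and 5 for the mean over genotypes, as many as without it. Scaling to a common median ratio moved the higher share of all calls, beside the main one, to 42.1% against 56.7% for dvl1-1D in WL, 43.4% against 67.9% for pif47 in WL, 40.4% against 56.4% for bsk36 in low R:FR, 59.9% against 42.4% for the bsk36 interaction and 42.8% against 31.1% for the pif47 interaction. Depth limits JAZ5, JAZ7 and JAZ8 most.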

Other observations

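The genes whose levels were most like those of JAZ9 over the 24 libraries were looked up after its values were seen, and are given as a description. The 8 closest had Pearson r of 0.928 to 0.948. The first was NTRC, a thioredoxin reductase gene, at 119 FPKM in low R:FR, against 160 FPKM in WL. OVA5 and OVA1, which encode organellar aminoacyl-tRNA ligases, were at 25.9 and 31.6 FPKM in low R:FR, against 32.4 and 47.6 FPKM in WL. RIF10, a polyribonucleotide nucleotidyltransferase gene, was at 35.1 FPKM in low R:FR, against 50.3 FPKM in WL. All of these share the light difference of JAZ9.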
